A study of Homo sapiens with 30 samples.

Results

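The transcripts described here carry LINC symbols, the names given to long intergenic noncoding RNAs before a function is known. They were taken as all symbols of the letters LINC followed by digits whose raw counts summed to 100 or more over 30 libraries of 3 colorectal cancer cell lines. That gave 212 members of 878 LINC symbols listed, in tables of 24462 symbols. The other 666 LINC symbols summed to less, and 240 of them had no count in any library. The members were thus chosen by their summed raw counts, so their being detected is no finding. Just inside the threshold were LINC00461 with 101 counts, LINC01136 with 102, and LINC01503 and LINC00365 with 103 each. Just outside were LINC00942 with 99 counts, LINC00514 with 97, LINC01225 with 95 and LINC01126 with 94.

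Long noncoding RNAs are transcribed by RNA polymerase II, usually spliced and polyadenylated, and often confined to few cell types. Some act in trans as scaffolds or decoys, as NORAD (LINC00657) does by binding PUMILIO proteins in the cytoplasm. Others act on, or are by-products of, the transcription of a neighbouring gene, and a few have turned out to encode small proteins.

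Expression was measured by QuantSeq, a 3′ tag method for polyadenylated transcripts, in 10 groups of 3 libraries. In Caco2, SETDB1-hairpin cells of a KRT20-positive and of a KRT20-negative fraction were set against scramble-hairpin cells in differentiation medium and scramble-hairpin cells in vehicle. The medium held 10 uM troglitazone, which activates PPARG, and 25 nM 1α,25-dihydroxyvitamin D3, which activates the vitamin D receptor. In HCT116 and SW480, SETDB1-hairpin cells labelled KRT-positive and KRT-negative were set against unsorted cells. Hairpins were delivered by retrovirus with puromycin selection, in lines grown with serum. SETDB1 encodes a histone H3 lysine methyltransferase of repressed chromatin, and KRT20 encodes a keratin of mature gut epithelium. No label gives the medium of the SETDB1-hairpin cells or of the unsorted ones, the hairpin, if any, of unsorted cells, or the origin of replicates from separate cultures. The p-values therefore measure only the spread between these samples, and in such bulk samples fewer cells of a type and less RNA per cell cannot be told apart.

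Caco2 libraries held 6538087 to 10074838 counts, HCT116 libraries 5349737 to 10221854 and SW480 libraries 6915326 to 10036179. The limit that a count of 0 allows is 3 counts, worth 0.293 to 0.561 CPM (counts scaled to the library total). Levels are CPM of 3′ tags, which count about 1 tag per transcript and need no division by length. SETDB1 stood at 20.2 to 26.8 CPM in the Caco2 SETDB1-hairpin libraries and at 29.9 to 39.5 CPM in the scramble ones. In HCT116 its libraries overlapped between KRT-positive cells, at 2.00 to 29.1 CPM, and unsorted cells, at 16.4 to 68.2 CPM. SW480 KRT-negative replicate 1 held 36.9 CPM of SETDB1, as much as unsorted cells. The HCT116 libraries labelled KRT-positive held 0, 0 and 5.44 CPM of KRT20, so the transcript does not mark that fraction in every library. Replicates varied beyond counting error, and their chi-square per degree of freedom was 2.208 to 16.26 for Caco2 pairs, 37.62 to 89.48 for HCT116 pairs and 41.16 to 138.3 for SW480 pairs. The epithelial markers EPCAM, KRT8, KRT18, CDH1, VIL1 and CDX2 were all detected in Caco2 and SW480, and VIL1 was at 0 in every HCT116 group. Summed levels of 11 fibroblast markers, none at 0 in a Caco2 group, were 144 to 169 CPM in KRT20-positive cells, 145, 161 and 878 CPM in KRT20-negative cells, 84.0 to 98.1 CPM in the medium and 57.6 to 66.9 CPM in vehicle. In HCT116 the sums were 155 to 213 CPM in KRT-positive cells, 120 to 156 CPM in KRT-negative cells and 86.1 to 105 CPM in unsorted cells, with the defining marker THY1 at 0 in all groups. The 6 leukocyte markers summed to 95.5 to 102 CPM in Caco2 KRT20-positive cells, 68.4 to 73.9 CPM in KRT20-negative cells, 70.0 to 75.4 CPM in the medium and 62.7 to 71.2 CPM in vehicle, so KRT20-positive libraries lay above all others. In HCT116 they summed to 12.5 to 42.1 CPM in KRT-positive cells, 34.2 to 51.1 CPM in KRT-negative cells and 6.21 to 21.9 CPM in unsorted cells, with KRT-negative above unsorted libraries. MS4A1 was at 0 in every group of the lines. The part of these other cell markers in the results was not tested.

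CYP24A1, which encodes the enzyme that degrades active vitamin D and is a classic target of the vitamin D receptor, bears on the medium that the labels leave out. It stood at 188, 190 and 175 CPM in Caco2 KRT20-positive cells, 163, 172 and 120 CPM in KRT20-negative cells, 207, 198 and 200 CPM in differentiation medium, and 1.03, 0.281 and 0.635 CPM in vehicle. The SETDB1-hairpin libraries thus lay near the medium libraries and far above vehicle. The log2 change of CYP24A1 against vehicle was 8.11 ± 0.21 (SE, adjusted p = 3.33e-18, edgeR quasi-likelihood test) in KRT20-positive cells, 7.81 ± 0.21 (adjusted p = 6.86e-18) in KRT20-negative cells and 8.22 ± 0.21 (adjusted p = 1.59e-17) in the medium. Against the medium it was -0.11 ± 0.11 (adjusted p = 0.443) in KRT20-positive and -0.41 ± 0.11 (adjusted p = 0.00382) in KRT20-negative cells. The comparisons of the fractions with vehicle therefore hold a difference in this ligand target, and the effects of hairpin, sorting and medium cannot be told apart there. In HCT116 it stood at 78.1, 122 and 87.1 CPM in KRT-positive cells, 417, 386 and 252 CPM in KRT-negative cells and 8.14, 12.3 and 16.8 CPM in unsorted cells, with log2 changes against unsorted cells of 3.0 ± 0.33 (adjusted p = 4.14e-05) and 4.87 ± 0.36 (adjusted p = 1.22e-06). In SW480 it stood at 119, 81.0 and 75.5 CPM in KRT-positive cells, 746, 790 and 571 CPM in KRT-negative cells and 93.7, 181 and 69.7 CPM in unsorted cells, with log2 changes against unsorted cells of -0.28 ± 0.32 (adjusted p = 0.786) in KRT-positive and 2.62 ± 0.34 (adjusted p = 0.00101) in KRT-negative cells. A difference of medium cannot be told apart from hairpin and sorting in the comparisons with unsorted cells either.

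The members took up little of each library. Their share of all counts was 0.184% to 0.193% in Caco2 KRT20-positive cells, 0.184% to 0.199% in KRT20-negative cells, 0.181% to 0.188% in differentiation medium and 0.175% to 0.182% in vehicle. In HCT116 the share was 0.203% to 0.217% in KRT-positive cells, 0.165% to 0.190% in KRT-negative cells and 0.118% to 0.128% in unsorted cells, without overlap. In SW480 it was 0.202% to 0.226% in KRT-positive cells, 0.164% to 0.183% in KRT-negative cells and 0.198% to 0.216% in unsorted cells. LINC00657 (NORAD) made up 32.9% to 42.9% of the members' counts in Caco2 libraries, 11% to 14.7% in HCT116 libraries and 21.7% to 25.1% in SW480 libraries.

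Positions were matched for 195 members in GENCODE 29 (GRCh38), where 140 are typed as lincRNA, 20 as antisense and 13 as protein-coding. Of the 212 members, 47 have since received another symbol in RefSeq, such as NORAD, CYTOR (LINC00152) and LNCAROD (LINC01468). The median transcribed length was 15600 bases, with a median of 4 exons in the form that has the most. They lie most often on chromosome 1, with 22 members, and chromosome 6, with 16. The gene body of 29 members overlaps a coding gene, and the others lie a median of 19725 bases from the nearest coding gene. For 22 members the nearest coding start site lies within 1000 bases in the opposite direction, a divergent arrangement.

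Promoter windows from RefSeq on GRCh38.p14, 250 bases before to 50 after the annotated start, were matched for 153 members in 171 entries. Their median GC content was 56.7%, against 58.7% over all 35116 entries, and their median number of CpG dinucleotides was 12, against 14. The windows below belong to the 4 members with an entry and the largest called changes in Caco2 among those reaching a mean of 2 CPM in either group, and to LINC01184, added after its values were seen because it starts next to the transporter gene SLC12A2. Capitals mark the TATA box TATAAA, the GC box GGGCGG, the promoter motif CCAAT, the AP-1 motif TGACTCA or the nuclear receptor half-site AGGTCA, on either strand. No marked run overlaps another.
LINC01468, upstream start: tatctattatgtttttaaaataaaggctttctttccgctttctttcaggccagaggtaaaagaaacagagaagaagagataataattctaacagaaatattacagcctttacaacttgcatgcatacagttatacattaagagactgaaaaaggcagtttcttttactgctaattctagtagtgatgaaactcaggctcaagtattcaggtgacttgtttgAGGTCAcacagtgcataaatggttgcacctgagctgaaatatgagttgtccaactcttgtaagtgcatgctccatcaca
LINC01468, inner start: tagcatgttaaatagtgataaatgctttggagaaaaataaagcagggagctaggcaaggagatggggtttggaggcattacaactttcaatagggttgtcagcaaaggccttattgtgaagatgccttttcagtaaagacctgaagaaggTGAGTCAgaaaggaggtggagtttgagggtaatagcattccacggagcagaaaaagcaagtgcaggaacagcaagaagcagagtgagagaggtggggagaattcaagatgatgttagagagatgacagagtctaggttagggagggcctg
LINC01277: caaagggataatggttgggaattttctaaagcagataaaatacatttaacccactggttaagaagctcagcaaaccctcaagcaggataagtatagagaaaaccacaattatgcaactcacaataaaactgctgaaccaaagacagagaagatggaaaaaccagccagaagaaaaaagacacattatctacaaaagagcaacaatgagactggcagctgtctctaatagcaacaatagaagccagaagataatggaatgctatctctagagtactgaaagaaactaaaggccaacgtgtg
LINC00982: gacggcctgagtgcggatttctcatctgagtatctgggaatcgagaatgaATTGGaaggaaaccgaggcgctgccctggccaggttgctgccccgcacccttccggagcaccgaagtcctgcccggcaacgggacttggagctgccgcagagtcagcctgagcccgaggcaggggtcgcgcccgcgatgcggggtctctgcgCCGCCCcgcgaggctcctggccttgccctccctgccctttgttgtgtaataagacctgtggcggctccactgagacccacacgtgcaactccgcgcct
LINC01133: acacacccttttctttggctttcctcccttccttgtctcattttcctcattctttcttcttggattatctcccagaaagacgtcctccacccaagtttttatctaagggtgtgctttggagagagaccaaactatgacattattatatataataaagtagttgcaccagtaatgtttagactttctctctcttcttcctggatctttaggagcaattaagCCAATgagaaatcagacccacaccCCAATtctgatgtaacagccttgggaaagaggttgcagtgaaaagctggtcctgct
LINC01184: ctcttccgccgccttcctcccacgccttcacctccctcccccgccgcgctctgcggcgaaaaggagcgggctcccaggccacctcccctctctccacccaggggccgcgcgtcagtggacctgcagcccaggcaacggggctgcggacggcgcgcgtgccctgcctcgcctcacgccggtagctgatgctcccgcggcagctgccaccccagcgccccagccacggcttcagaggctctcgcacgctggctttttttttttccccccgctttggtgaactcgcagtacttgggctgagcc

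The LINC01468 windows are chr10:52470484-52470783 and chr10:52455223-52455522, both on the minus strand, and hold 1 AGGTCA and 1 TGACTCA run. LINC01277 (chr6:143037533-143037832, minus strand) holds none of the 5 motifs. LINC00982 (chr1:3067676-3067975, minus strand) holds 1 GGGCGG and 1 CCAAT run, and LINC01133 (chr1:159960974-159961273, plus strand) holds 2 CCAAT runs. LINC01184 (chr5:128083126-128083425, minus strand) holds none. The LINC01468, LINC01277 and LINC01133 windows are poor in CpG, with 1 each, at a GC content of 36% to 44.7%. LINC00982 and LINC01184 have 25 and 29 CpG at 65.3% and 70.3% GC. Over all entries 11.5% held TATAAA, 45.0% GGGCGG, 34.6% CCAAT, 4.95% TGACTCA and 13.8% AGGTCA. Over the members' entries the shares were 12.9%, 44.4%, 39.8%, 7.02% and 17.5%, in the same order. A match describes letters in these windows and is not evidence of binding.

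The first comparison set the Caco2 SETDB1-hairpin fractions against scramble-hairpin cells in vehicle, across which hairpin, sorting and the level of CYP24A1 all differ. Of the 212 members, 130 passed the filter on low counts in Caco2, and the 82 that did not had at most 98 counts over its libraries, 6 of them none. In KRT20-positive cells against vehicle, 27 members rose and 14 fell (edgeR quasi-likelihood test, 5% FDR), when 19.3% of all 13968 tested genes rose and 18.4% fell. In KRT20-negative cells against vehicle, 24 rose and 11 fell, against 18.6% and 17.6% of all genes. The share of members that rose was thus 20.8% and 18.5%, close to that of all genes, while the share that fell was 10.8% and 8.46%. The median fitted log2 change of the members was 0.28 in KRT20-positive and 0.31 in KRT20-negative cells, with all genes at 0.01 in both, and 66.2% and 70.8% of members lay above 0. A low member can pass the cut on summed counts mainly through groups where it is high. All genes had no such cut, so the members' medians describe the list. Antisense RNAs, as a class of 327 tested, had medians of 0.06 and 0.10. Without KRT20-negative replicate 3, the library with the high fibroblast marker sum, 19 members rose and 15 fell in the KRT20-negative comparison. Fitted on only the groups compared, 14 rose and 9 fell there. The shares of all genes called in these refits are not given here.

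**Figure D1:**
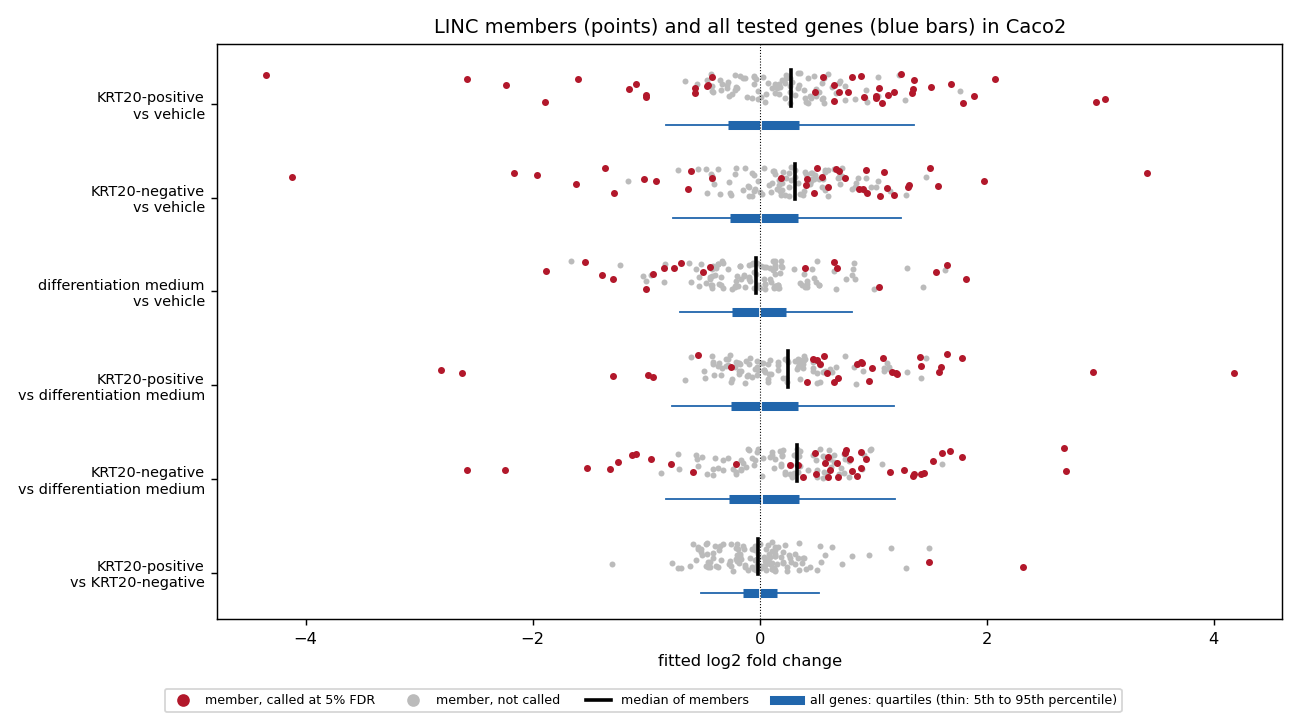
Fitted log2 fold changes (horizontal axis) of the 130 tested LINC members in the 6 Caco2 comparisons, 1 point per member, red where called at 5% FDR, with the members' median as a black line. Blue bars give the quartiles and the 5th to 95th percentile of all 13968 tested genes. The members' medians lie at 0.25 to 0.33 in the 4 comparisons of a SETDB1-hairpin fraction with scramble cells, at -0.03 for the medium against vehicle and at -0.01 between the fractions. They describe a list chosen by summed counts.

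LINC01468, called LNCAROD for its reported activation of the Wnt inhibitor gene DKK1, fell in every group set against vehicle. It stood at 1.41, 0.817 and 0.674 CPM in KRT20-positive cells, 1.18, 0.974 and 1.26 CPM in KRT20-negative cells, 5.68, 6.94 and 8.19 CPM in differentiation medium, and 23.3, 14.9 and 22.2 CPM in vehicle. The SETDB1-hairpin libraries were all below the medium libraries, and these were all below vehicle. The fitted log2 change against vehicle was -4.35 ± 0.29 (SE, adjusted p = 2.66e-11, edgeR) in KRT20-positive cells, -4.12 ± 0.27 (adjusted p = 3.02e-11) in KRT20-negative cells and -1.54 ± 0.22 (adjusted p = 1.70e-05) in the medium. Against the medium it was -2.81 ± 0.32 (adjusted p = 2.62e-07) in KRT20-positive cells. Between the fractions it was -0.23 ± 0.41 (adjusted p = 0.849).

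DKK1 lies on the opposite strand of chromosome 10, 132.8 kb from the annotated LINC01468 gene. Its level was 27.0, 33.9 and 24.4 CPM in KRT20-positive cells, 34.3, 33.5 and 23.3 CPM in KRT20-negative cells, 95.6, 86.4 and 84.1 CPM in the medium, and 224, 262 and 223 CPM in vehicle. The groups stand in the same order as for LINC01468, with the same libraries apart. The log2 change of DKK1 against vehicle was -3.04 ± 0.13 (adjusted p = 2.20e-13) in KRT20-positive cells, -2.96 ± 0.13 (adjusted p = 3.35e-13) in KRT20-negative cells and -1.41 ± 0.12 (adjusted p = 3.78e-08) in the medium. In HCT116 the log2 change of DKK1 against unsorted cells was -3.39 ± 0.35 (adjusted p = 2.45e-05) in KRT-positive and -3.23 ± 0.35 (adjusted p = 5.62e-05) in KRT-negative cells. SW480 had no count of LINC01468. Its DKK1 stood at 34.0, 59.8 and 34.7 CPM in KRT-negative cells and 1.84, 7.37 and 0 CPM in unsorted cells. The SW480 changes were not called, at 3.8 ± 1.33 (adjusted p = 0.209) in KRT-negative and 2.58 ± 1.26 (adjusted p = 0.325) in KRT-positive cells. LINC01468 stood at 4.99, 4.51 and 22.1 CPM in HCT116 KRT-positive cells, 2.03, 0 and 0 CPM in KRT-negative cells and 25.2, 23.5 and 8.90 CPM in unsorted cells, with adjusted p of 0.816 in KRT-positive and 0.1 in KRT-negative cells against unsorted cells.

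LINC01184, now SLC12A2-DT, starts 594 bases from the start of SLC12A2, which encodes the sodium, potassium and chloride cotransporter of secretory epithelium, and runs the other way. It stood at 14.2, 12.1 and 17 CPM in KRT20-positive cells, 17.5, 14.8 and 15.8 CPM in KRT20-negative cells, 16.4, 13.7 and 18.5 CPM in the medium, and 34.2, 25.5 and 38.1 CPM in vehicle. All libraries of the other 3 groups lay below all vehicle libraries and overlapped each other. The log2 change against vehicle was -1.15 ± 0.16 (adjusted p = 5.47e-06) in KRT20-positive cells, -1.02 ± 0.16 (adjusted p = 2.31e-05) in KRT20-negative cells and -1.0 ± 0.16 (adjusted p = 8.89e-05) in the medium. SLC12A2 changed by -1.20 ± 0.09 (adjusted p = 1.42e-10), -1.05 ± 0.09 (adjusted p = 1.45e-09) and -0.78 ± 0.09 (adjusted p = 6.01e-07) in the same comparisons. Of the 12 divergent pairs with both transcripts tested in Caco2, this was the only pair with both called the same way in any comparison with vehicle. Few pairs could show this, since 1 LINC member of the 12 was called in KRT20-positive cells, 2 in KRT20-negative cells and 1 in the medium. The other called member was LINC01521 (0.55, adjusted p = 0.0444, edgeR) in KRT20-negative cells, where its partner PATZ1 had 0.15 (adjusted p = 0.155).

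**Figure D2:**
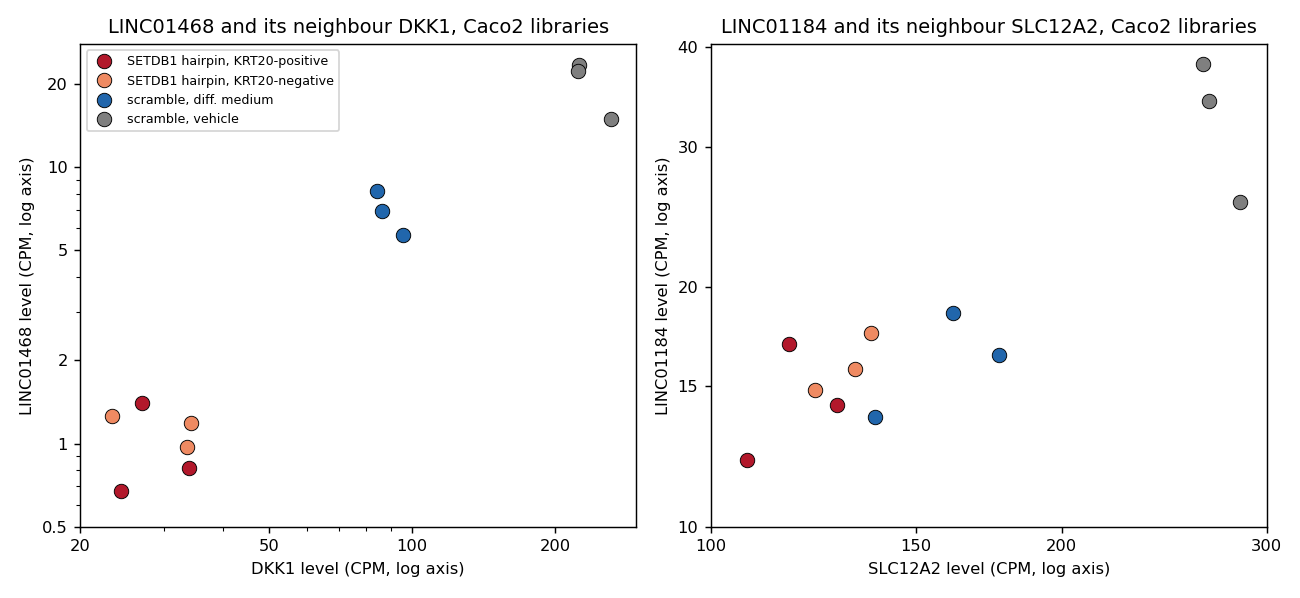
Levels in the 12 Caco2 libraries of LINC01468 against DKK1 (left) and LINC01184 against SLC12A2 (right), in CPM on log axes, 1 point per library, coloured by group. Vehicle libraries lie at the upper right of both plots, and the medium lies between them and the SETDB1-hairpin fractions on both axes only in the left plot.

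Other members also fell. LINC00842, in a duplicated region of chromosome 10, averaged 1.59 ± 0.725 CPM in KRT20-positive cells, 1.71 ± 0.572 CPM in KRT20-negative cells, 3.11 ± 0.135 CPM in the medium and 7.64 ± 1.17 CPM in vehicle (SD, n = 3 each). LINC00479, a transcript of chromosome 21, averaged 3.14 ± 1.29, 3.04 ± 1.18, 4.50 ± 0.273 and 11.8 ± 3.51 CPM in the same groups. Both fell against vehicle in both fractions and in the medium, with log2 changes of -2.23 to -1.29 for LINC00842 and -1.96 to -1.39 for LINC00479. LINC01488, called CUPID1 and placed between MYEOV and the cyclin D1 gene CCND1, stood at 0.281, 0.681 and 0.944 CPM in KRT20-positive cells, 1.30, 0.609 and 2.84 CPM in KRT20-negative cells, 5.93, 3.94 and 2.28 CPM in the medium and 2.95, 4.21 and 4.76 CPM in vehicle. KRT20-positive libraries were below all scramble libraries, and KRT20-negative replicate 3 overlapped the medium. The log2 change against vehicle was -2.58 ± 0.54 (adjusted p = 0.000527, edgeR) in KRT20-positive cells and -1.28 ± 0.45 (adjusted p = 0.0294) in KRT20-negative cells. The KRT20-negative call was lost without KRT20-negative replicate 1 or 2 or vehicle replicate 2 or 3, with adjusted p up to 0.127. CCND1, which lies 146.1 kb away, fell by 0.68 and 0.69 in the same comparisons. Against the medium both also fell in each fraction. In the medium against vehicle CCND1 rose by 0.30 ± 0.07 (adjusted p = 0.00445, edgeR), where LINC01488 had 0.05 ± 0.41 (adjusted p = 0.957). Between the fractions CCND1 had 0.0 ± 0.07 (adjusted p = 0.988) and LINC01488 -1.3 ± 0.58 (adjusted p = 0.262). LINC00341, a symbol now merged with the coding gene SYNE3, averaged 3.46 ± 0.973, 3.92 ± 1.75, 8.61 ± 0.928 and 7.51 ± 1.88 CPM in KRT20-positive cells, KRT20-negative cells, medium and vehicle. Its change against vehicle was -1.09 ± 0.30 (adjusted p = 0.00556) in KRT20-positive and -0.91 ± 0.29 (adjusted p = 0.0149) in KRT20-negative cells.

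Among the members that rose, LINC01277 on chromosome 6 stood at 2.53, 3.40 and 2.43 CPM in KRT20-positive cells, 4.49, 3.17 and 3.26 CPM in KRT20-negative cells, 0.617, 0.631 and 1.88 CPM in the medium, and 0.385, 0.421 and 0.159 CPM in vehicle. All 6 SETDB1-hairpin libraries lay above all 6 scramble libraries. The log2 change against vehicle was 3.04 ± 0.54 (adjusted p = 9.70e-05) in KRT20-positive cells and 3.41 ± 0.52 (adjusted p = 1.65e-05) in KRT20-negative cells. Against the medium it was 1.41 ± 0.44 (adjusted p = 0.0151) and 1.78 ± 0.42 (adjusted p = 0.00188), for KRT20-positive and KRT20-negative cells, and the KRT20-positive call was lost without medium replicate 1 or 2 or KRT20-positive replicate 2, with adjusted p up to 0.0896. LINC01389 averaged 4.84 ± 1.27 CPM in KRT20-positive cells, 4.72 ± 1.33 CPM in KRT20-negative cells, 1.61 ± 0.642 CPM in the medium and 1.92 ± 0.726 CPM in vehicle, with log2 changes against vehicle of 1.36 ± 0.36 (adjusted p = 0.00423) in KRT20-positive and 1.32 ± 0.36 (adjusted p = 0.00547) in KRT20-negative cells. LINC00645 averaged 6.90 ± 1.80 CPM in KRT20-positive cells, 9.61 ± 1.91 CPM in KRT20-negative cells, 3.54 ± 1.57 CPM in the medium and 3.36 ± 1.07 CPM in vehicle, and had no count in HCT116 or SW480. Its changes against vehicle were 1.03 ± 0.31 (adjusted p = 0.0119) in KRT20-positive and 1.5 ± 0.30 (adjusted p = 0.000432) in KRT20-negative cells. LINC00649 stood at 12.1 to 14.0 CPM in KRT20-positive cells and 11.8 to 12.9 CPM in KRT20-negative cells, against 7.66 to 8.52 CPM in the medium and 7.14 to 7.43 CPM in vehicle, with changes against vehicle of 0.81 ± 0.17 (adjusted p = 0.000536) in KRT20-positive and 0.75 ± 0.17 (adjusted p = 0.00114) in KRT20-negative cells. These comparisons share their scramble libraries and their SETDB1-hairpin libraries.

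Loci that carry a LINC symbol and encode small proteins differed among themselves. LINC01420 encodes NBDY, a small protein of the mRNA decapping complex. It averaged 15.5 ± 0.482 CPM in KRT20-positive cells, 15.8 ± 1.45 CPM in KRT20-negative cells, 11.2 ± 1.77 CPM in the medium and 8.45 ± 0.916 CPM in vehicle. Its log2 change against vehicle was 0.89 ± 0.17 (adjusted p = 0.000191) in KRT20-positive and 0.91 ± 0.17 (adjusted p = 0.000157) in KRT20-negative cells. LINC00467, reported to encode a peptide in colorectal cancer, averaged 22.1 ± 4.36, 20.2 ± 2.53, 11.9 ± 0.244 and 11 ± 1.41 CPM in the same groups, and its libraries in the fractions lay above all scramble libraries. Its changes against vehicle were 1.03 ± 0.17 (adjusted p = 3.26e-05) and 0.88 ± 0.17 (adjusted p = 0.000199). LINC00493 (SMIM26) averaged 61.4 ± 2.19, 70.1 ± 3.01, 58.0 ± 7.54 and 52.9 ± 6.25 CPM, and rose against vehicle by 0.41 ± 0.10 (adjusted p = 0.00275) in KRT20-negative cells, with 0.23 ± 0.10 (adjusted p = 0.0782) in KRT20-positive cells. LINC00116 encodes mitoregulin of the inner mitochondrial membrane. It averaged 27.1 ± 1.29, 21.4 ± 7.22, 36.5 ± 1.48 and 33.1 ± 4.31 CPM, and its change against vehicle was -0.63 ± 0.18 (adjusted p = 0.00795) in KRT20-negative and -0.27 ± 0.17 (adjusted p = 0.244) in KRT20-positive cells. KRT20-negative replicate 3 was the lowest library, at 13.6 CPM, against 22.9 and 27.8 CPM in the other KRT20-negative libraries. LINC00998 (SMIM30) stayed at 20.7 to 24.1 CPM on average in all 4 groups and was called in none of the comparisons.

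Differentiation medium against vehicle asked what the receptor ligands did in scramble cells. Here 7 members rose and 11 fell, 5.38% and 8.46% of the 130 tested, when 10.4% of all genes rose and 10.5% fell. The members' median was -0.03. LINC00152 (CYTOR), an RNA reported to be raised in many carcinomas and with a near-identical copy in MIR4435-2HG, stood at 76.4, 69.4 and 77.2 CPM in the medium and 34.5, 38.7 and 35.1 CPM in vehicle. The medium libraries lay far above all others, since the KRT20-positive libraries held 35.0 to 40.4 CPM and the KRT20-negative ones 28.2 to 35.1 CPM. The log2 change was 1.05 ± 0.10 (adjusted p = 9.82e-08) for the medium against vehicle. Against the medium it was -0.98 ± 0.10 (adjusted p = 8.57e-08) in KRT20-positive and -1.25 ± 0.10 (adjusted p = 1.57e-09) in KRT20-negative cells. Counts of LINC00152 and its copy could have been split between the symbols, so its level is uncertain.

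LINC00685, a pseudoautosomal transcript beside PPP2R3B, went the other way in the medium. It stood at 42.5, 42.4 and 50.5 CPM in KRT20-positive cells, 53.4, 43.8 and 58.1 CPM in KRT20-negative cells, 18.6, 13.7 and 18.4 CPM in the medium and 30.9, 32.3 and 34.9 CPM in vehicle. The medium lay below vehicle and both fractions above it, with no library overlapping. The log2 change against vehicle was -0.94 ± 0.14 (adjusted p = 2.65e-05) in the medium, 0.49 ± 0.13 (adjusted p = 0.00392) in KRT20-positive cells and 0.67 ± 0.13 (adjusted p = 0.000172) in KRT20-negative cells. PPP2R3B, which encodes a regulatory subunit of protein phosphatase PP2A, had 0.22 ± 0.16 (adjusted p = 0.370), 0.07 ± 0.16 (adjusted p = 0.768) and 0.44 ± 0.16 (adjusted p = 0.0322). The counting strand is not stated in the sources used here, so reads of overlapping genes cannot be told apart. LINC00574 stood at 2.84, 2.68 and 3.36 CPM in the medium and 11.7, 10.1 and 11.3 CPM in vehicle, a log2 change of -1.88 ± 0.27 (adjusted p = 1.37e-05). LINC00657 (NORAD) rose in the medium by 0.40 ± 0.07 (adjusted p = 0.000234), to 847, 816 and 810 CPM, against 629, 656 and 596 CPM in vehicle. LINC00260 rose by 1.65 ± 0.34 (adjusted p = 0.00118). The other named members that fell were LINC00888 and LINC01000, with log2 changes of -0.84 and -0.75. LINC01588 and LINC00623 rose with adjusted p of 0.0353 and 0.0469. Both calls were lost without medium replicate 1 or vehicle replicate 2 or 3, with adjusted p up to 0.214 for LINC01588 and 0.206 for LINC00623. The LINC00623 call was also lost without medium replicate 2 or 3, vehicle replicate 1 or KRT20-positive replicate 1, and with DESeq2.

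Against the medium, 25 members rose and 7 fell in KRT20-positive cells, when 18.0% of all genes rose and 16.6% fell. In KRT20-negative cells 31 rose and 11 fell, when 19.6% and 18.4% of all genes did. The members' medians were 0.25 and 0.33, with all genes at 0.01 and 0.02, and describe a list chosen by summed counts. LINC00982, now PRDM16-DT and divergent from PRDM16, stood at 0.844, 2.86 and 2.83 CPM in KRT20-positive cells, 1.18, 1.34 and 2.94 CPM in KRT20-negative cells, 0.370, 0.316 and 0.134 CPM in the medium and 0.641, 0.982 and 1.11 CPM in vehicle. Both fractions lay above the medium in every library, and KRT20-positive cells overlapped vehicle. The log2 change against the medium was 2.94 ± 0.65 (adjusted p = 0.00111) and 2.68 ± 0.66 (adjusted p = 0.00241). Against vehicle it was 1.28 ± 0.53 (adjusted p = 0.0620) and 1.03 ± 0.53 (adjusted p = 0.139). PRDM16, which encodes a transcriptional regulator, had 0.30 ± 0.22 (adjusted p = 0.313) and 0.37 ± 0.21 (adjusted p = 0.182) against the medium. Against vehicle PRDM16 rose by 1.13 ± 0.23 (adjusted p = 0.000502) in KRT20-positive cells, 1.21 ± 0.23 (adjusted p = 0.000253) in KRT20-negative cells and 0.84 ± 0.23 (adjusted p = 0.0135) in the medium, where LINC00982 had -1.66 ± 0.75 (adjusted p = 0.126). LINC00483, now ANKRD40CL, averaged 1.16 ± 0.589 CPM in KRT20-negative cells and 3.34 ± 0.271 CPM in the medium, with a log2 change of -1.52 ± 0.42 (adjusted p = 0.00588). LINC01234, reported in tumours, stood at 2.53, 1.5 and 1.75 CPM in KRT20-positive cells, 0.827, 0.244 and 0.945 CPM in KRT20-negative cells, 0.124, 0.158 and 0 CPM in the medium and 0.256, 0 and 0.476 CPM in vehicle, on 42, 18, 2 and 5 counts. It was called higher against the medium in KRT20-positive cells (adjusted p = 0.000385) and KRT20-negative cells (adjusted p = 0.0311), and against vehicle in KRT20-positive cells (adjusted p = 0.00197).

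The fractions differed in few members. In KRT20-positive against KRT20-negative cells, 2 members rose and 0 fell at 5% FDR (edgeR), when 2.30% of all genes rose and 1.78% fell. An unadjusted p under 0.05 was reached by 16 of the 130 members and by 2306 of the 13968 genes tested. DESeq2 also called 2. The members that rose were LINC01133, reported to hold back epithelial to mesenchymal transition in colorectal cancer through the splicing factor SRSF6, and LINC01559. LINC01133 stood at 10.7, 6.54 and 6.87 CPM in KRT20-positive cells, 1.18, 2.56 and 1.16 CPM in KRT20-negative cells, 6.67, 9.15 and 7.39 CPM in the medium, and 1.54, 2.52 and 2.54 CPM in vehicle. KRT20-positive and medium libraries overlapped each other and lay above all KRT20-negative and vehicle libraries. The log2 change was 2.32 ± 0.32 (adjusted p = 5.76e-05) between the fractions, 1.89 ± 0.32 (adjusted p = 4.82e-05) in KRT20-positive cells against vehicle and 1.82 ± 0.32 (adjusted p = 0.000222) in the medium against vehicle. In KRT20-negative cells against vehicle it was -0.43 ± 0.38 (adjusted p = 0.402).

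LINC01559 stood at 16.2, 14.4 and 13.5 CPM in KRT20-positive cells, 6.62, 3.29 and 5.88 CPM in KRT20-negative cells, 12.7, 8.99 and 9.13 CPM in the medium, and 4.36, 2.24 and 3.97 CPM in vehicle. KRT20-positive libraries were the highest of the 4 groups, and KRT20-negative and vehicle libraries overlapped. In SW480 it stood at 0, 16.1 and 27.0 CPM in KRT-positive cells, 24.6, 33.7 and 16.1 CPM in KRT-negative cells and 0, 10.3 and 0 CPM in unsorted cells, and the SW480 fractions overlapped. In Caco2 the log2 change was 1.49 ± 0.24 (adjusted p = 0.000343) between the fractions, 2.07 ± 0.26 (adjusted p = 8.40e-07) in KRT20-positive cells against vehicle and 1.55 ± 0.27 (adjusted p = 0.000166) in the medium against vehicle. KRT20 itself, after which the fractions are named, stood at 35.9, 38.8 and 26.7 CPM, 1.06, 1.83 and 1.16 CPM, 9.26, 8.36 and 6.31 CPM, and 1.03, 0.842 and 1.27 CPM in the same groups. LINC01207 (SMIM31), which encodes a small membrane protein, averaged 2.15 ± 0.600 CPM in KRT20-positive cells, 0.886 ± 0.187 CPM in KRT20-negative cells, 0.674 ± 0.295 CPM in the medium and 0.751 ± 0.172 CPM in vehicle. It rose in KRT20-positive cells against vehicle (log2 1.51 ± 0.48, adjusted p = 0.0159), a call lost without KRT20-positive replicate 1 or 3 or vehicle replicate 2, with adjusted p up to 0.0765. Between the fractions its change was 1.29 ± 0.45 (adjusted p = 0.128).

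**Figure D3:**
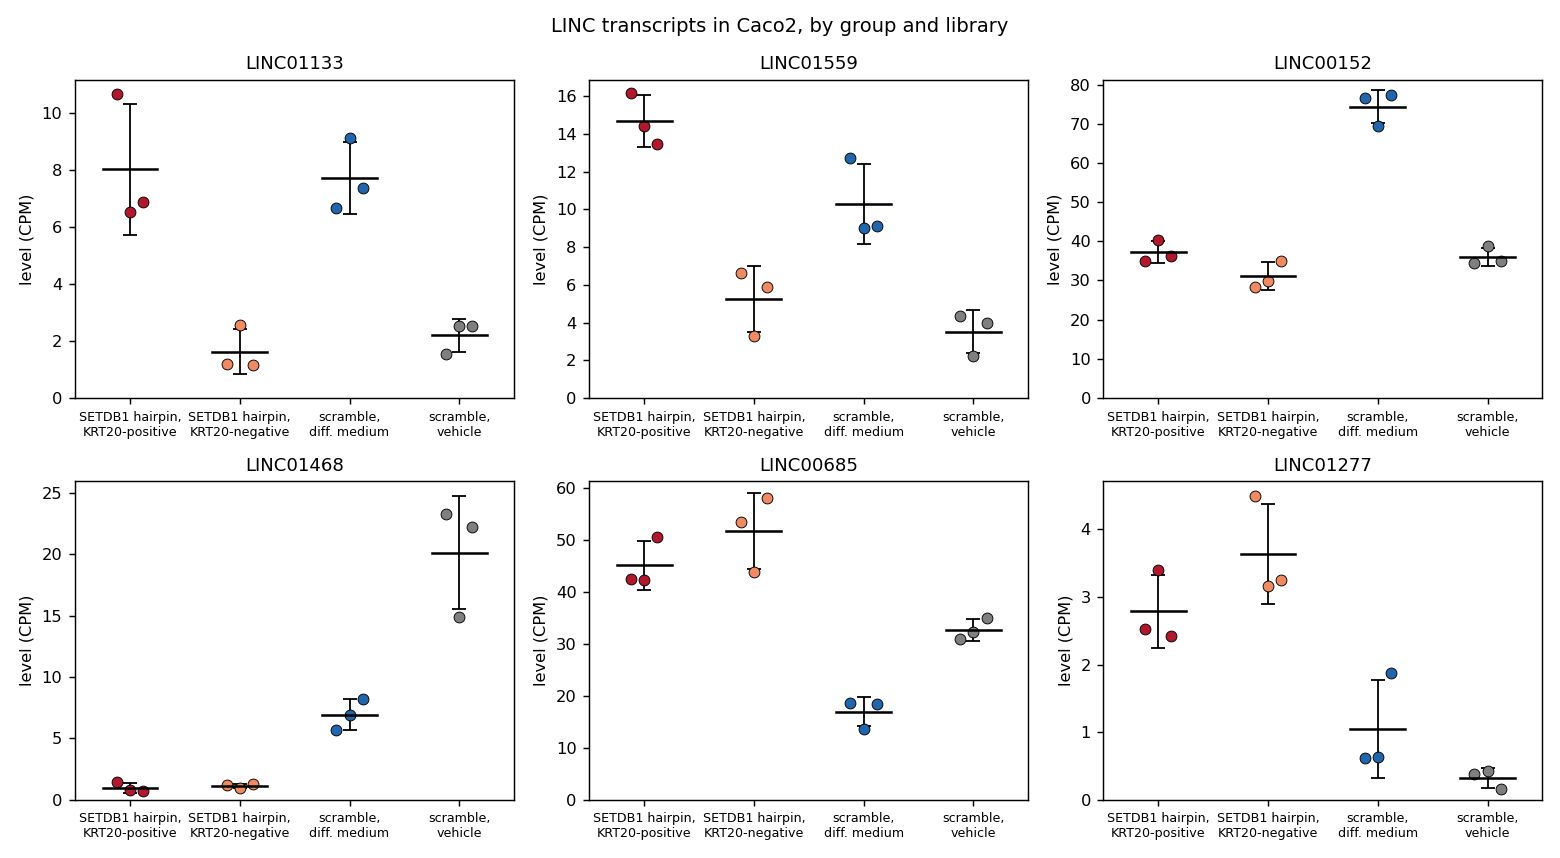
Levels (CPM, axis from 0) of 6 members in the Caco2 groups, 1 point per library, with the mean as a bar and the SD of 3 libraries as whiskers. LINC01133 and LINC01559 are high in KRT20-positive cells and in the medium, LINC00152 is high in the medium, LINC01468 is high in vehicle, LINC00685 is low in the medium and LINC01277 is high in both SETDB1-hairpin fractions.

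In HCT116, 108 members were tested, and the other 104 had up to 251 counts over its libraries, 36 of them none. Of those tested, 4 rose and 0 fell in KRT-positive against unsorted cells, when 4.26% of all genes rose and 5.02% fell. An unadjusted p under 0.05 was reached by 20 of the 108 members and by 2998 of the 13279 genes tested. In KRT-negative against unsorted cells 3 rose and 0 fell, when 2.82% and 2.44% of all genes did. Here 16 members and 2350 of the 13279 genes had an unadjusted p under 0.05. The medians of the members were 0.61 and 0.42, with all genes at 0.07 and 0.04 and antisense RNAs at 0.56 and 0.42. The members' medians again describe a list chosen by summed counts. DESeq2 called 13 and 9 members, 11 and 7 of them higher. The share of all genes called by DESeq2 is not given here. Without KRT-negative replicate 1, 5 members were called in KRT-negative against unsorted cells. Between KRT-positive and KRT-negative cells 0 members were called, when 0.166% of all genes rose and 0.384% fell. There 7 members and 1490 of the 13279 genes had an unadjusted p under 0.05, and DESeq2 called 2 members.

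LINC00346, now PRECSIT, an RNA reported in tumours, stood at 74.2, 48.0 and 30.6 CPM in HCT116 KRT-positive cells, 40.5, 49.5 and 30.8 CPM in KRT-negative cells and 2.87, 3.74 and 9.32 CPM in unsorted cells. Every library of the fractions lay above every unsorted one. The log2 change against unsorted cells was 3.32 ± 0.57 (adjusted p = 0.00142, edgeR) in KRT-positive and 2.98 ± 0.56 (adjusted p = 0.00432) in KRT-negative cells. LINC00342, from a duplicated region of chromosome 2, stood at 80.4, 60.7 and 25.2 CPM in KRT-positive cells, 76.7, 28.6 and 44.0 CPM in KRT-negative cells and 8.44, 1.80 and 10.6 CPM in unsorted cells, again without overlap. Its changes were 3.04 ± 0.64 (adjusted p = 0.00612) and 2.89 ± 0.64 (adjusted p = 0.0135).

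The remaining calls in HCT116 were smaller or less stable. LINC00888, now SNHG33 in RefSeq, stood at 74.7, 76.2 and 118 CPM in KRT-positive cells and 25.6, 42.4 and 33.1 CPM in unsorted cells, with a change of 1.45 ± 0.36 (adjusted p = 0.0168). The call was lost without KRT-positive replicate 3 or unsorted replicate 1, with adjusted p up to 0.0986. LINC01000 stood at 42.6, 37.1 and 47.2 CPM in KRT-positive cells and 14.5, 1.11 and 8.28 CPM in unsorted cells, with 2.43 ± 0.72 (adjusted p = 0.0435). LINC00152 stood at 132, 153 and 224 CPM in KRT-negative cells and 68.3, 48.4 and 106 CPM in unsorted cells, with 1.22 ± 0.32 (adjusted p = 0.0327). Leaving out any of 6 libraries ended the LINC01000 call (KRT-positive replicate 1, 2 or 3, KRT-negative replicate 3, unsorted replicate 2 or 3), with adjusted p up to 0.108. Leaving out any of 5 ended that of LINC00152 (KRT-negative replicate 2 or 3, KRT-positive replicate 3, unsorted replicate 1 or 2), with adjusted p up to 0.207. HCT116 libraries also differed in how expression followed the GC content of transcripts. Each was classed AT or GC by the sign of its slope, a rule that splits any set of libraries. The AT class held the KRT-positive libraries, KRT-negative replicate 1 and unsorted replicates 1 and 2. Slopes were graded, and that of KRT-positive replicate 1, -0.041 (log2 per 10% GC), lay within the -0.052 to 0.089 of the unclassed Caco2 libraries. With the class as a term, LINC00346 kept 3.64 (adjusted p = 0.000778) and 2.90 (adjusted p = 0.00272) in KRT-positive and KRT-negative cells, and LINC01000 had 2.13 (adjusted p = 0.0921).

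**Figure D4:**
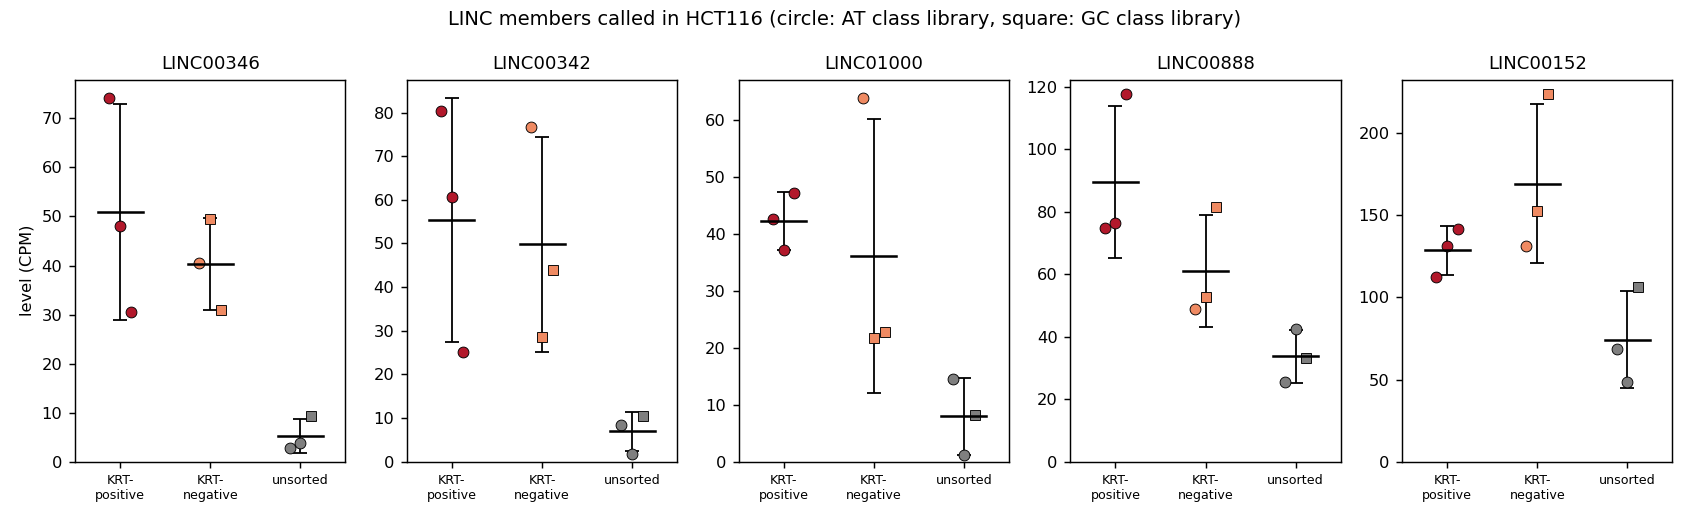
Levels (CPM, axes from 0) of the 5 members called in HCT116, 1 point per library in KRT-positive, KRT-negative and unsorted cells, with the mean as a bar and the SD of 3 libraries as whiskers. Circles are libraries of the AT class and squares those of the GC class. LINC00346 reaches at most 9.32 CPM in unsorted cells and at least 30.6 CPM in either fraction.

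In SW480, 112 members were tested, and the other 100 had up to 292 counts, 33 of them none. No member was called by edgeR at 5% FDR in any of its comparisons. In KRT-positive against unsorted cells 1.90% of all genes rose and 1.57% fell. An unadjusted p under 0.05 was reached by 9 members and by 2239 of the 13252 genes tested, and DESeq2 called 2 members. In KRT-negative against unsorted cells 1.36% of all genes rose and 0.762% fell. There 6 members and 1700 of the 13252 genes had an unadjusted p under 0.05, and DESeq2 called 2 members. In KRT-positive against KRT-negative cells 0.226% of all genes rose and 0.219% fell. There 9 members and 1469 of the 13252 genes had an unadjusted p under 0.05, and DESeq2 called 1 member. The members' medians were -0.01, -0.21 and -0.06. Levels scattered widely between replicates: LINC00342 stood at 14.6, 39.4 and 14.0 CPM in KRT-positive cells, 1.77, 17.1 and 6.68 CPM in KRT-negative cells and 20.8, 52.9 and 14.9 CPM in unsorted cells. LINC00346, high in HCT116 fractions, reached at most 10.0 CPM in SW480, and 5 of its 9 libraries had none.

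Whether the step from KRT-negative to KRT-positive cells differed between lines was tested as an interaction in 1 fit of all libraries. That fit shares the spread of each gene over the lines, though HCT116 and SW480 replicates varied more than those of Caco2. Its adjusted p-values may therefore be too small for steps in HCT116 and SW480. No member was called by edgeR for Caco2 against HCT116, when 0.502% of all genes were, nor for Caco2 against SW480, when 1.02% were. An unadjusted p under 0.05 was reached by 26 and 27 of the 194 members tested, beside 1646 and 2281 of the 16150 genes. DESeq2 called 3 and 4 members. For HCT116 against SW480, 4 members were called, when 2.14% of all genes were. They were LINC01089, LINC00239, LINC01006 and LINC00261, each without counts in a fraction of either line. Fitted on only the sorted groups of those lines, 0 members were called.

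The lines differed in which members they expressed, with the caveat that a summed count of 100 can be reached through 1 line alone, so the counts that follow describe the list. Over all libraries 194 members were tested, and the 18 others summed to a median of 129 counts. Caco2 was higher than HCT116 in 80 members and lower in 39, when 33.7% of all 16150 genes were higher and 23.0% lower. Caco2 was higher than SW480 in 70 and lower in 30, when 34.6% and 22.9% of all genes were. HCT116 was higher than SW480 in 35 and lower in 36, when 21.2% and 21.6% of all genes were. In these comparisons the lines also differ in how their groups were treated and sorted and in the spread between replicates, which cannot be told apart from the line. Fitted on the vehicle or unsorted groups alone, 57, 41 and 21 members were called in the 3 comparisons, in the same order. The shares of all genes called in that fit are not given here, so these counts describe the members alone.

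LINC00657 was the highest member of all lines, with 596 to 847 CPM across Caco2 libraries, 153 to 217 CPM across HCT116 libraries and 389 to 529 CPM across SW480 libraries. The ranges do not overlap, and the log2 change was 1.93 ± 0.06 (adjusted p = 5.73e-19, edgeR) for Caco2 against HCT116, 0.63 ± 0.06 (adjusted p = 7.30e-10) for Caco2 against SW480 and -1.29 ± 0.06 (adjusted p = 6.94e-15) for HCT116 against SW480. LINC00152 had its lowest mean in Caco2 instead, at 28.2 to 77.2 CPM there, 48.4 to 224 CPM in HCT116 and 123 to 467 CPM in SW480. Caco2 lay below SW480 in every library (log2 -2.61 ± 0.15, adjusted p = 4.34e-14, edgeR). HCT116 was lower than SW480 for LINC00152 too (log2 -1.17 ± 0.15, adjusted p = 8.74e-07), the same direction as for LINC00657. LINC01578, now CHASERR, which lies beside and restrains the remodeller gene CHD2, came next in Caco2 at 67.8 to 85.9 CPM. LINC00987 had 41.1 to 103 CPM in Caco2 and no count in any HCT116 or SW480 library, and was among 10 members with at least 2 CPM on average in Caco2 and at most 0.1 CPM in the other lines. HCT116 had 5 such members, led by LINC00326 at a mean of 8.72 CPM (range 0 to 28.4). SW480 had 5, led by LINC00520 at a mean of 5.30 CPM (range 0 to 22.2). The 10 members of Caco2 were above 0 in all its libraries. Those of HCT116 and SW480, apart from LINC01239 of HCT116, were at 0 in some library of their own line. LINC01468, LINC01133 and LINC00479, which changed in Caco2, had no count in SW480. LINC00261, beside the endoderm factor gene FOXA2, averaged 3.71 to 4.47 CPM in the Caco2 groups, and in HCT116 and SW480 it was detected in 1 library each.

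**Figure D5:**
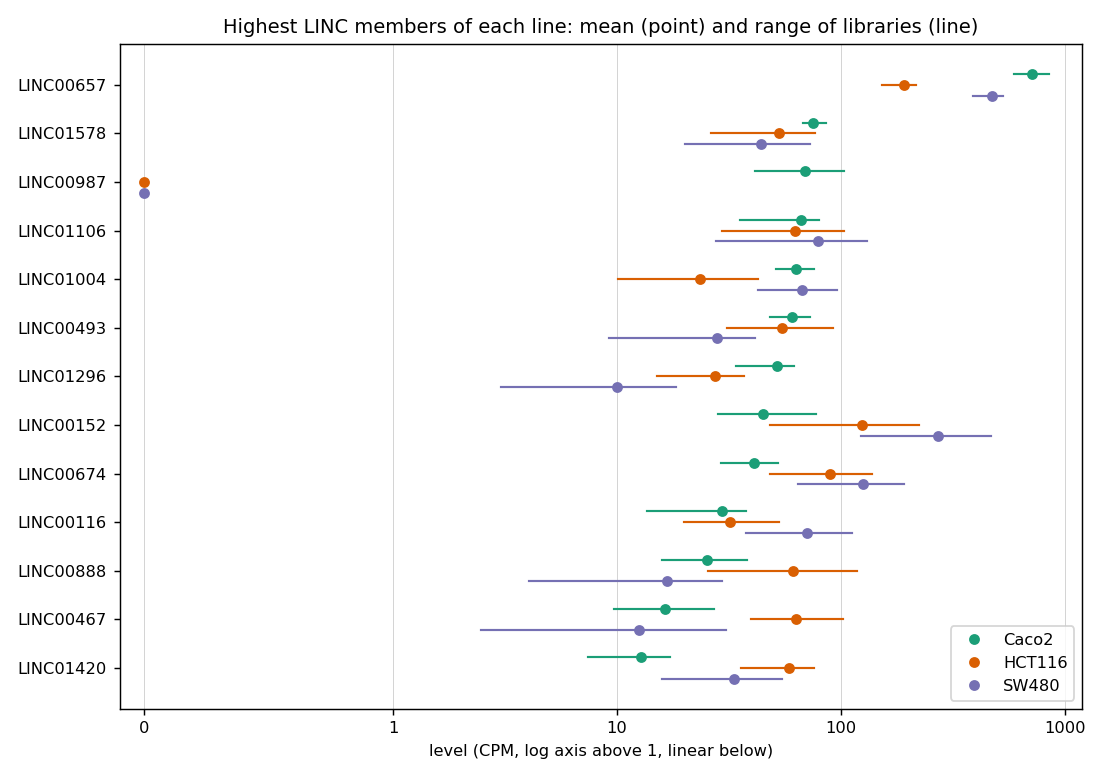
Mean level (point) and range of libraries (line) in Caco2 (12 libraries), HCT116 (9) and SW480 (9) of the 8 members highest in each line, in CPM on an axis that is logarithmic above 1 and linear below. LINC00657 leads in all lines, and LINC00987 is at 0 in HCT116 and SW480.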

How the data were processed

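For each library the authors deposited raw 3′ tag counts by gene symbol. The tools were Bowtie2 and edgeR and the build hg19, per the submitters' processing notes; versions, counting strand and the treatment of reads that match several places are not given in the sources used here. Lines of repeated symbols were summed (1561 lines of 286 symbols), leaving 24462. The members and lists were chosen with earlier results of these data known.

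Within a line, the groups shared 1 quasi-likelihood fit (edgeR 4.0.16, R 4.3.3; TMM, robust, low counts removed by filterByExpr), and calls were made at 5% FDR over all tested genes. Lines, and the step between fractions across lines, were compared in 1 fit of all 30 libraries. There the spread of each gene was shared over lines that differ in replicate spread, so SE and adjusted p for HCT116 and SW480 may be too small. The SE was taken from the log2 change and the F statistic. Levels are CPM with TMM factors. The test was tried on simulated data first. Named members are, per comparison and direction, up to 8 called members with the largest change, a mean of 2 CPM in either group and libraries that do not overlap, the 8 highest of each line, and role lists. Same-numbered libraries of KRT20-negative cells and differentiation medium deviated together weakly (correlations 0.129 to 0.170) and count as paired by a cut of 0.1. Other pairs of groups did not all exceed 0.1 but could come near, with 0.082 to 0.163 between the Caco2 fractions. The main fits held no replicate block for any comparison, and the block was run only as an alternative, with counts given below. Alternatives were RLE factors, no low-count filter, DESeq2 1.42.0, a replicate block, only the groups compared, the AT or GC class, each library left out, and member thresholds of 50 and 200. Positions are from GENCODE 29, and promoters and newer symbols from RefSeq (GRCh38.p14). No hg19 annotation was used here.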

Additional observations from a re-analysis of the deposited data

Results flagged for a closer look

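The step from KRT-negative to KRT-positive cells differed between HCT116 and SW480 in 4 members by an interaction test over all 30 libraries (edgeR, adjusted over 16150 genes, of which 2.14% were called). All 4 members rested on groups without counts, so no fold is given.

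LINC01089 (adjusted p = 0.0147) stood at 0, 3.38 and 0.874 CPM in HCT116 KRT-positive cells and 0 in KRT-negative cells, and at 0 in SW480 KRT-positive cells and 1.88, 4.93 and 9.64 CPM in KRT-negative cells. LINC00239 (adjusted p = 0.0172) stood at 7.68, 7.11 and 7.77 CPM in HCT116 KRT-positive cells and 0 in KRT-negative cells, and at 0 in SW480 KRT-positive cells and 3.09, 8.52 and 0 CPM in KRT-negative cells. LINC01006 (adjusted p = 0.0367) stood at 0 in HCT116 KRT-positive cells and 0, 0 and 2.10 CPM in KRT-negative cells, and at 0, 4.22 and 3.88 CPM in SW480 KRT-positive cells and 0 in KRT-negative cells. LINC00261 (adjusted p = 0.0471) stood at 0 in HCT116 KRT-positive cells and 5.86, 0 and 0 CPM in KRT-negative cells, and at 0, 0 and 5.46 CPM in SW480 KRT-positive cells and 0 in KRT-negative cells, so that 1 library in each line decides its value. With only the groups compared, 0 members were called. Leaving out single libraries gave 2 to 7 members.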

How the results depend on the processing

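Counts of called members are given as in the text and then under the alternative. The shares of all genes called under the alternatives are not given here, so the counts describe the members alone. Fitted on only the groups compared, KRT20-negative cells against vehicle had 23 called members, against 35, Caco2 against HCT116 57, against 119, Caco2 against SW480 41, against 100, HCT116 against SW480 21, against 71, and the step differences 1 and 2, against 0 and 0 (Caco2 minus HCT116, Caco2 minus SW480), and 0, against 4 (HCT116 minus SW480). DESeq2 called 9 and 13 members in HCT116 KRT-negative and KRT-positive against unsorted cells, against 3 and 4, and 2 between those fractions, against 0. In SW480 it called 2, 2 and 1, against 0 in each comparison, and 3, 4 and 13 in the step differences, against 0, 0 and 4. Without a low-count filter, HCT116 KRT-negative against unsorted cells had 5. The AT or GC class as a term gave 1 in SW480 KRT-positive against KRT-negative cells, against 0. With the replicate block this count was 1, the line comparisons with SW480 gave 63 (Caco2) and 34 (HCT116), and the step Caco2 minus HCT116 gave 1; the block changed no other count by over 1.5 times, with 18, 38, 45, 45, 38 and 3 called in the Caco2 comparisons (medium, KRT20-negative and KRT20-positive against vehicle, KRT20-negative and KRT20-positive against the medium, and between the fractions). Leaving out 1 library gave 15 to 19, 25 to 34, 28 to 44, 32 to 44, 22 to 37 and 2 to 3 in those Caco2 comparisons. In HCT116 it gave 2 to 5 (5 without KRT-negative replicate 1) and 3 to 4 against unsorted cells, and 0 to 1 between the fractions. In SW480 it gave 0 to 0 for KRT-negative and 0 to 2 for KRT-positive against unsorted cells, and 0 to 1 between the fractions (2 and 1 without KRT-positive replicate 3). The line comparisons gave 111 to 124, 95 to 104 and 68 to 76, and the step differences 0 to 1, 0 to 1 and 2 to 7 (7 without SW480 KRT-positive replicate 2). The cause of these moves was not tested. Of 125 values of named members, 98 stayed called under every alternative that gave them an adjusted p, and 0 reversed. Within Caco2, 59 of 80 stayed called. A summed count of at least 50 would give 251 members and of at least 200 would give 157. In HCT116 and SW480, 3 replicates with wide spread limit what can be called, and members under about 1 CPM rest on few counts.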

Other observations

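Other long noncoding RNAs were set beside the LINC members in Caco2. Of 327 tested antisense RNAs, 65 (19.9%) rose and 21 (6.42%) fell in KRT20-positive cells against the medium, when 18.0% of all genes rose and 16.6% fell. In KRT20-negative cells against the medium 77 (23.5%) rose and 21 (6.42%) fell, when 19.6% and 18.4% of all genes did, and the median log2 changes were 0.19 in KRT20-positive and 0.22 in KRT20-negative cells. Against vehicle, 48 (14.7%) rose and 31 (9.48%) fell in KRT20-positive cells, when 19.3% and 18.4% of all genes did, and 46 (14.1%) rose and 27 (8.26%) fell in KRT20-negative cells, when 18.6% and 17.6% did. In the medium against vehicle, 9 (2.75%) rose and 30 (9.17%) fell, when 10.4% and 10.5% of all genes did. Of 34 other named long noncoding RNAs tested, CRNDE, an RNA reported to be raised in colorectal tumours, fell by 0.72 on the log2 scale in KRT20-positive against KRT20-negative cells (edgeR, adjusted p = 0.0101) and by 1.04 against vehicle (adjusted p = 1.70e-05).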
